A study of Mus musculus with 6 samples.

Results

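Securin, encoded by Pttg1, was examined with 9 genes of sister chromatid cohesion in the mouse cerebral cortex. These were Espl1, Rad21, Smc1a, Smc3, Stag1, Stag2, Pds5a, Pds5b and Nipbl. The 10 genes were represented by every probe set, a group of short probes for 1 transcript, whose platform gene symbol named them, and together had 31 of 45037 probe sets. The arrays named 18193 genes by a single symbol. Pttg1 was chosen by its array signals, for their large fall between the groups, so its difference is given as a description with no test. The other 9 genes were taken for their place in the pathway, though with earlier results of these data known.

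Total RNA was measured on 6 Affymetrix mouse expression arrays, 3 of wild type cortex and 3 labelled Egr1/Egr3 double knockout, called labelled knockouts here. The targeted genes code for zinc finger proteins that bind DNA and that active neurons induce. The labels give no strain, age, sex, treatment or design of the knockout alleles, and do not say whether each array had its own animal. The p-values therefore measure only the spread between these arrays. The title of double knockout replicate 1 is worded like the wild type titles and names no genotype, so its group rests on its description.

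Egr3 signal averaged 1594 ± 941 in wild type and 405 ± 89.8 in the labelled knockouts (SD, n = 3 each), with no overlap. Egr1 signal was 1577 ± 423 and 2473 ± 309, higher where the label names a knockout, and no source used here gave the parts of the genes deleted. For that reason the group keeps the name of its label. Labelled knockout replicate 2 came from a female, by its Xist and Eif2s3y signals, and the other 5 arrays did not. Spiked controls of wild type replicate 1 read 0.430 of their median across arrays, and the 3' to 5' ratio of the Gapdh control probe sets ran from 0.806 to 0.873 in wild type and from 0.881 to 0.950 in the other group. The 5 neuronal markers Slc17a7, Snap25, Neurod6, Camk2a and Gad1 were all above the filter on low signals, with a summed signal of 11796 to 13795 in wild type and 13997 to 15038 in the labelled knockouts. Snap25 was the largest part of that sum, and the markers were mixed, 3 higher and 2 lower with a median log2 difference of 0.01. Slc17a7 stood at 0.62 with overlap, and Neurod6 at -0.44 without overlap (443 ± 77.8 against 319 ± 21.2), and none of the 5 passed. Choroid plexus markers summed to between 152 and 10850 in wild type and between 100 and 4775 in the other group. The highest sums were mostly Ttr, at 10347 in wild type replicate 3 and 4697 in labelled knockout replicate 1. In the other arrays Ttr read 34.6 to 375. Of the markers of astrocytes, oligodendrocytes, microglia and endothelium, 1 passed the test, where 1.22% of all tested genes passed. That marker, Aqp4 of astrocyte endfeet, fell by 0.96 on the log2 scale (967 ± 7.67 against 495 ± 100.2, limma adjusted p = 0.0139). The 3 astrocyte markers went opposite ways, each without overlap. Gfap was at 730.3 ± 105.9 and 447 ± 221 (log2 -0.83, limma adjusted p = 0.258), while Slc1a3, a glutamate transporter gene, was at 1045 ± 28.9 and 1373 ± 139 (log2 0.38, limma adjusted p = 0.118). Their sum of 2653 to 2795 in wild type and 1993 to 2587 in the labelled knockouts therefore describes no common direction. The 3 microglia markers were lower and the 2 tested oligodendrocyte markers higher, none past the threshold. P2ry12 of microglia stood at -0.72 (limma adjusted p = 0.103) and Mbp of oligodendrocytes at 0.37 (limma adjusted p = 0.258), both without overlap. Endothelial markers were mixed, 1 higher and 2 lower. The oligodendrocyte precursor markers Pdgfra and Cspg4 stood at -0.24 and -0.27. Dcx and Sox11 of neural progenitors and neuroblasts stood at 0.42 and 0.24, and Nes, below the filter, at 0.19. All of these overlapped between the groups, and none of those tested passed. The part of these differences between arrays in the results on Pttg1 and cohesin was not tested.

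Cohesin is a ring-shaped protein complex that holds the 2 sister chromatids together from DNA replication until anaphase. Its ring consists of the ATPases Smc1a and Smc3 and the kleisin Rad21, to which a Stag protein and a Pds5 protein bind, and Nipbl loads it onto DNA. At anaphase the anaphase promoting complex marks securin for destruction, which frees the protease separase, encoded by Espl1, to cut Rad21. Most neurons of the mature cortex no longer divide; in such cells cohesin also shapes chromatin loops and gene expression. Securin is known in addition as a protein that can act on transcription.

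The letters before the listed start sites of securin and of its target separase are shown because Pttg1 differed most between the groups and the targeted factors are DNA-binding proteins. Both windows hold the 250 bases before the start in the RefSeq table of build GRCm38.p6, 5′ to 3′ on the gene's strand. Capitals mark matches to motifs searched on both strands.
Pttg1, chr11:43425982-43426231, minus strand: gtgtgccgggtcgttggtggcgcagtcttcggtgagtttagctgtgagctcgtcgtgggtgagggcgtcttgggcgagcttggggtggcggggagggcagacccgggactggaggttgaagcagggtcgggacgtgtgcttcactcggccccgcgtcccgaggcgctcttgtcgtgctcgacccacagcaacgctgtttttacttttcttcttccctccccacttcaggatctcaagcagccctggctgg
Espl1, chr15:102296043-102296292, plus strand: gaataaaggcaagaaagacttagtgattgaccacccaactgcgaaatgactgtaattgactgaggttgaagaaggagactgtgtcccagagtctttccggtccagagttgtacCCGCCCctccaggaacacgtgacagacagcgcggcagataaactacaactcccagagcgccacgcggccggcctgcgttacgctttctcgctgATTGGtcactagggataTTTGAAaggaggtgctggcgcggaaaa
The motifs were the Egr sites GCGTGGGCG and GCGGGGGCG, the GC box GGGCGG, the CCAAT box CCAAT and the cell cycle homology region TTTGAA. They do not contain each other, although a GC box and an Egr site can share bases. The Pttg1 window held 0 matches to any of the 5. The Espl1 window held a GC box 137 bases, a CCAAT box 44 bases and a cell cycle homology region 27 bases before the start. Among 32851 windows of the same length, 0.536% held the first Egr site and 2.57% the second, 32.7% a GC box, 33.8% a CCAAT box and 15.99% a cell cycle homology region. The Pttg1 window lies inside the annotated gene, 1482 bases from the gene's outermost end. For 7 of the 10 genes a window was listed, and 0 of the 7 held either Egr site. The Stag1 window also lies inside its annotated gene, 45739 bases from that gene's outermost end.

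Pttg1 signal was lower in the labelled knockouts on each of its 3 probe sets. On the brightest, 1438390_s_at, the wild type arrays read 1140.3, 1722 and 1119 and the labelled knockouts 70.1, 102 and 83.0. Every wild type array thus lay above every other array, with a gap of 1017 units between the nearest. The group means were 1327 ± 342 and 85.0 ± 16.01 (SD, n = 3 each), a ratio of 15.6 and a log2 difference of -3.72. Here and throughout, a log2 difference is the mean log2(signal + 16) of the labelled knockouts less that of wild type. The added 16 shrinks the differences of dim probe sets. The suffix of this probe set marks probes that may match more than 1 transcript.

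The second probe set, 1424105_a_at, read 295, 365 and 221 in wild type, against 17.1, 24.5 and 21.9 in the labelled knockouts. Its means of 294 ± 71.8 and 21.2 ± 3.74 gave a ratio of 13.9 and a log2 difference of -3.04. In the labelled knockouts this probe set was below 36.6, the signal that matches the filter on low signals, so the size of the difference depends on how dim signals are treated. With a pseudocount of 1 it was -3.72, and with a pseudocount of 64 it was -2.05. The brightest probe set moved less, between -3.94 and -3.20 over the same pair of settings.

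The dimmest probe set, 1419620_at, did not pass the filter and read 14.8, 35.8 and 29.0 in wild type against 8.48, 6.79 and 2.65. Even at this low signal the groups did not overlap. Among all 45037 probe sets, 8.0% were lower and 9.08% higher without overlap, and nothing is read from the comparison because this contrast chose Pttg1. The 2 brighter probe sets held the lowest and the next lowest log2 difference, ranks 1 and 2, of the 22518 probe sets tested. These ranks restate the choice of Pttg1.

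Wild type replicate 2 was the highest of the 6 arrays on all 3 Pttg1 probe sets. The same array had the highest Egr3 signal, at 2670, against 1189 and 924 in wild type replicates 1 and 3. It was also the highest array on probe sets of other genes, among them Rad21 1455938_x_at, Pds5b 1435242_at and Nipbl 1437158_at. A link between Egr3 and Pttg1 signal was not tested. Within the labelled knockouts, replicate 1 was lowest on both brighter probe sets and replicate 2, the female, was highest. The spread was similar in relative terms, with a coefficient of variation on the brightest probe set of 25.8% in wild type and 18.8% in the other group. Without wild type replicate 1 and labelled knockout replicate 2 together, the log2 difference on the brightest probe set was -3.93. In RNA of whole tissue, fewer cells of a type and less RNA per cell cannot be told apart.

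**Figure D1:**
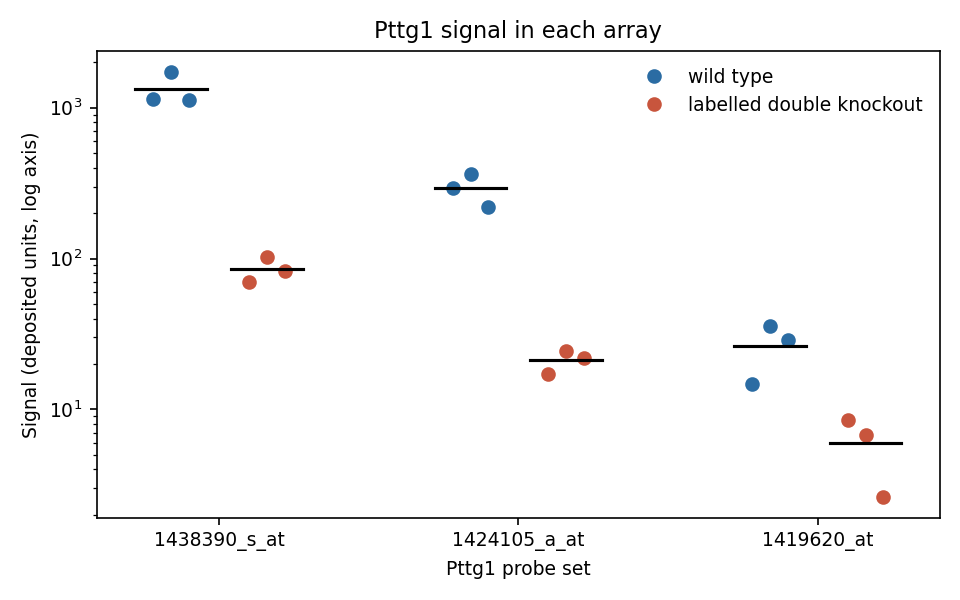
Signal of the 3 Pttg1 probe sets in each array, in deposited units on a log axis; points are arrays and bars are group means (n = 3). On each probe set the 3 labelled knockouts lay below the 3 wild type arrays, from 70.1 to 102 against 1119 to 1722 on 1438390_s_at.

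Separase was too dim to pass the filter on low signals. The single Espl1 probe set, 1433862_at, was below the filter and read 21.5, 17.8 and 19.2 in wild type, against 24.5, 31.1 and 17.1 in the labelled knockouts. The values overlapped, and the lowest and the highest array both belonged to the latter group. With no filter, Espl1 was among the 28 probe sets tested, of which none passed in limma. Only 10 of all 45037 probe sets passed in that setting, so the count is not a result about Espl1. A change of Espl1 was not detectable at this signal.

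Across the other 8 genes no tested probe set passed. Of 28 probe sets of the 9 genes besides Pttg1, 23 passed the filter and 5 did not. An adjusted p under 0.05 in limma was reached by 0 of the 23, against 1.02% of all tested probe sets (229 of 22518), 0.426% higher and 0.591% lower. A count of 0 is near that share and is not a result about these genes. An unadjusted p under 0.05 was found for 7 of the 23 and for 3735 of all tested probe sets. Log2 differences ran from -0.26 to 0.55, with 20 of 23 above 0 and a median of 0.11, beside a median of 0.01 and 51.6% above 0 over all tested probe sets. The groups did not overlap for 9 probe sets that were higher and 1 that was lower in the labelled knockouts, where the shares of all tested probe sets were 11.5% and 10.7%. Several of the 23 probe sets measure the same gene, so the count is not one of independent values, and those that did not pass the filter are not part of it.

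The count of positive differences was the same under other scalings, with 20 of 23 above 0 after quantile normalization and after a shift to the common median. It depended more on single arrays, as did the median of 0.11, which was 0.178 without wild type replicate 1 and 0.171 without labelled knockout replicate 2. Without wild type replicate 3, 16 of 23 were above 0, and without labelled knockout replicate 3, 17 of 22. Taking the brightest tested probe set of each of the 8 genes, the median deviation from the wild type mean was 0.18, 0.06 and 0.18 in labelled knockout replicates 1, 2 and 3, and -0.001, 0.03 and -0.002 in the wild type arrays. Replicate 2, from the female, was thus nearest to the wild type arrays.

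**Figure D2:**
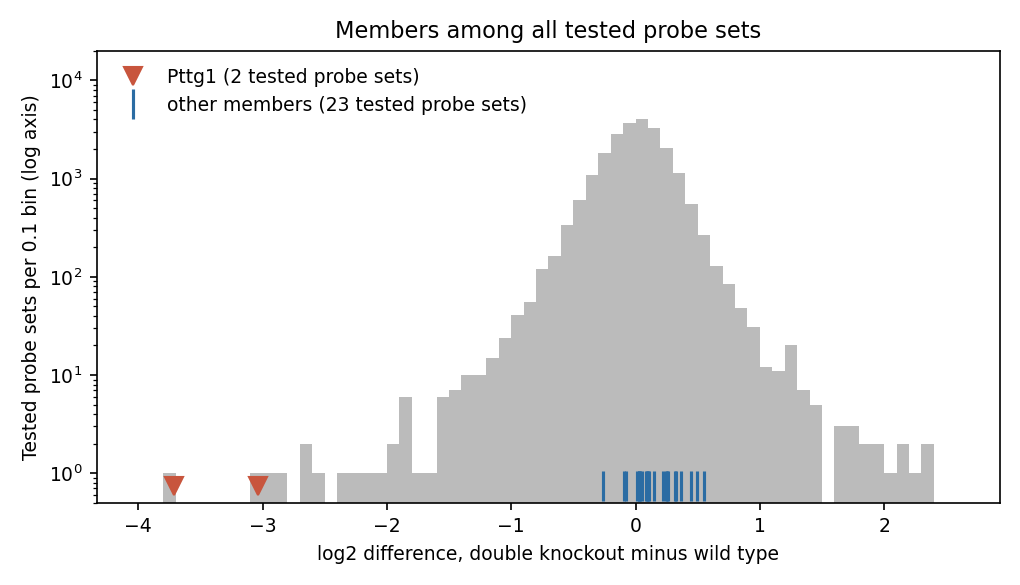
Histogram of log2 differences (labelled knockouts minus wild type) of 22518 tested probe sets, with the number per 0.1 bin on a log axis. Triangles mark the 2 tested Pttg1 probe sets at -3.72 and -3.04, and ticks mark the 23 tested probe sets of the other genes, which lie between -0.26 and 0.55.

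The ring subunits differed by small amounts. Smc1a, on the X chromosome, read 370, 403 and 410 in wild type, against 410, 394 and 400 on its brightest probe set, 1417830_at, in the labelled knockouts. The groups overlapped, and the log2 difference was 0.02 (95% interval -0.20 to 0.245, limma adjusted p = 0.936).  The dimmer probe sets 1417831_at and 1417832_at differed by 0.08 and -0.09 and overlapped too.

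Smc3, the partner ATPase on chromosome 19, was slightly higher in each labelled knockout, though not past the threshold. Its probe set 1450950_at read 311, 307 and 302 in wild type, against 343, 382 and 354 in the other group. The groups were 31.97 units apart at the nearest arrays. The log2 difference was 0.22 (95% interval -0.01 to 0.445, limma adjusted p = 0.316). A second Smc3 probe set, 1450951_at, was below the filter, with group means of 22.9 and 31.3.

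Rad21, the kleisin that separase cuts, had 3 tested probe sets that behaved differently across the wild type arrays. The brightest, 1416161_at, read 1199, 1293 and 867 in wild type, against 1412, 1077 and 1484 in the labelled knockouts. Wild type replicate 3 was the lowest of the 6 arrays there, and also on 1455938_x_at, whose suffix marks probes that may match other transcripts, where it read 218 against 403 and 405 in the other wild type arrays. On 1416162_at the same array was not set apart, with wild type values of 231, 240.4 and 233 against 333, 264 and 299. Of the 3, this last probe set separated the groups, with a log2 difference of 0.32 (95% interval 0.06 to 0.58, limma adjusted p = 0.215). The difference on 1416161_at was 0.25, and became 0.07 without wild type replicate 3, 0.16 without labelled knockout replicate 3 and 0.39 without labelled knockout replicate 2. On 1455938_x_at the difference was 0.11 and turned to -0.17 without wild type replicate 3.

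The Stag proteins, alternative subunits that bind Rad21, gave the highest positive differences among the 23 probe sets. Stag2, on the X chromosome, was higher in all 3 labelled knockouts on both of its probe sets. On 1450396_at the wild type arrays read 106, 102 and 107 and the others 189, 141 and 156. The log2 difference was 0.55 (95% interval 0.24 to 0.86), a ratio of means of 1.54, and the limma adjusted p of 0.101 did not pass. On the brighter 1421849_at the values were 534, 512 and 458 against 622, 577 and 604, a log2 difference of 0.26 (95% interval 0.03 to 0.48, limma adjusted p = 0.245). The female array was the lowest of its group on both. Without it the differences were 0.635 and 0.285. Over the alternatives the adjusted p of 1450396_at ran from 0.0910 to 0.283.

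Stag1, on chromosome 9, had 6 tested probe sets, and they divided. The dim probe set 1421939_a_at read 44.8, 43.7 and 35.3 in wild type, against 56.2, 65.7 and 72.3 in the labelled knockouts, a log2 difference of 0.49 (limma adjusted p = 0.174). Likewise 1421940_at read 48.2, 50.6 and 45.5 against 80.2, 58.7 and 76.6, a difference of 0.45 (limma adjusted p = 0.205). With a pseudocount of 64 these 2 differences were 0.29 and 0.27. The other 4 probe sets differed by -0.07 to 0.15. Among them the brightest, 1434189_at, read 180, 180 and 206 against 212, 206 and 212, so that its groups were only 0.0504 units apart. Its log2 difference was 0.15 (95% interval -0.11 to 0.40, limma adjusted p = 0.567). Stag1 therefore has no single difference on these arrays, and no source used here gave the positions of the probes in the transcripts.

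The Pds5 proteins bind the ring and take part in both its upkeep and its release. Pds5a was higher in the labelled knockouts on both tested probe sets, without overlap and without passing. Its brighter probe set 1425082_s_at read 171, 162 and 120 in wild type, against 188, 183 and 224 in the other group, a log2 difference of 0.37 (95% interval 0.03 to 0.71, limma adjusted p = 0.268). Without wild type replicate 3, the lowest array, it was 0.23. Its dimmer 1441238_at differed by 0.33 (limma adjusted p = 0.346), and by 0.18 with a pseudocount of 64. Pds5b read 704, 705 and 734 against 823, 706 and 779 on 1436161_at, overlapping only in the narrow range around 706 to 734, with a log2 difference of 0.10 (95% interval -0.12 to 0.32, limma adjusted p = 0.654). On 1435242_at Pds5b differed by 0.02 (limma adjusted p = 0.965). The intervals of the paralogs overlap, and a difference between Pds5a and Pds5b in their response was not tested. The remaining probe set of each gene was below the filter.

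Nipbl, the cohesin loader on chromosome 15, was the single gene of the 8 whose brightest probe set was lower without overlap. On 1437158_at the wild type arrays read 239, 267 and 258 and the labelled knockouts 225, 199 and 208. The log2 difference was -0.26 (95% interval -0.51 to -0.01, limma adjusted p = 0.287), and stayed between -0.30 and -0.22 over the alternatives. The other 3 tested Nipbl probe sets went the other way, at 0.03, 0.09 and 0.26, with overlapping groups. For 1430309_at, at 0.26, labelled knockout replicate 3 read 158 while the other arrays lay between 89.9 and 118, and without that array the difference was 0.12. Nipbl probe sets thus differed in sign, and none passed.

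**Figure D3:**
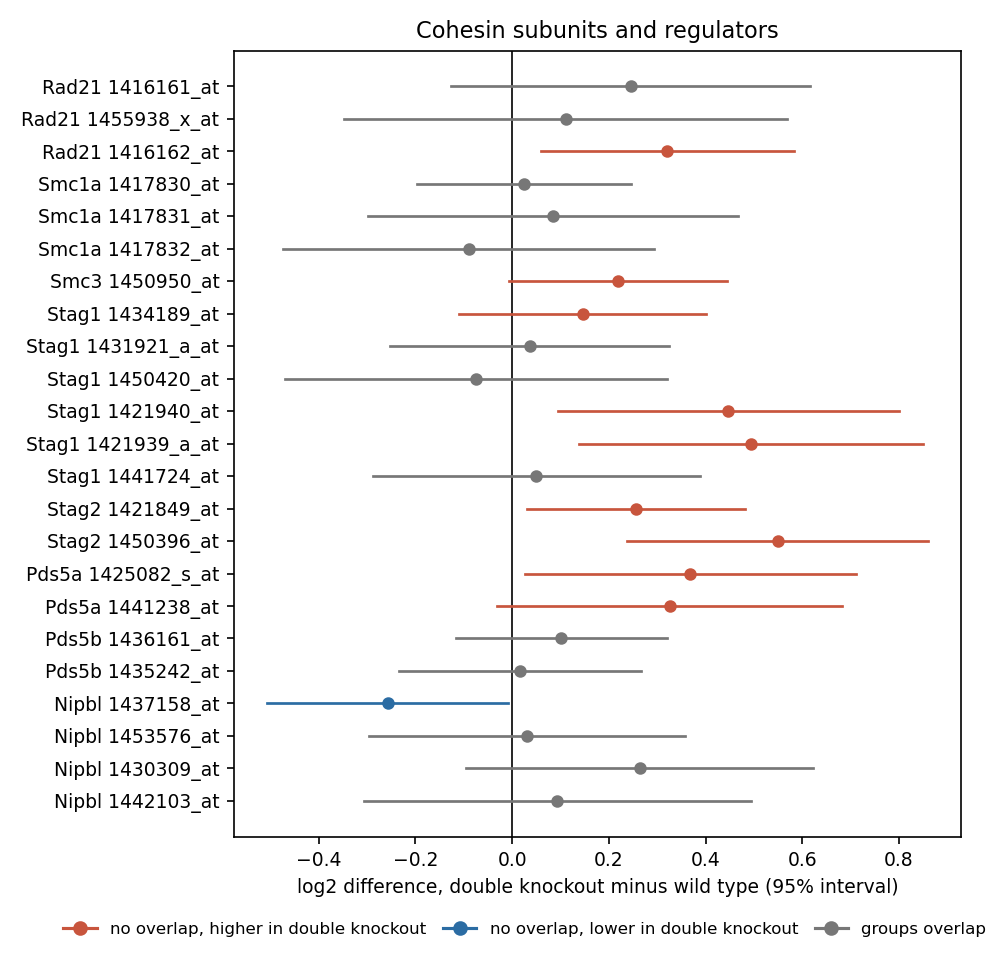
Log2 difference (labelled knockouts minus wild type) with its 95% limma interval for the 23 tested probe sets of 8 cohesin genes, the brightest first within each gene. Red marks the 9 probe sets that were higher without overlap, blue the 1 that was lower, and grey those whose groups overlapped; none passed an adjusted p of 0.05.

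Further genes of the pathway were taken from 4 lists, each gene represented by its brightest tested probe set. Of 24 other cohesin subunits and cohesion regulators 11 were tested, 12 were below the filter and 1 was not matched. None of the 11 passed in either direction, 4 were higher and 7 lower, and their median log2 difference was -0.12 beside 0.01 for all 11053 tested genes, of which 1.22% passed. The median was closer to 0 in some alternatives, at -0.017 without wild type replicate 2, -0.04 without wild type replicate 1 and -0.014 with no filter, which takes in 23 genes. The 2 smallest p-values belonged to the acetyltransferase gene Esco1 and the deacetylase gene Hdac8, whose products add and remove the acetyl mark on Smc3. Esco1 read 229, 336 and 320 in wild type, against 260.3, 176 and 141 in the labelled knockouts (log2 -0.60, limma adjusted p = 0.201), with overlap. Hdac8 stood at 65.1 ± 9.05 and 47.3 ± 3.43 (log2 -0.35, limma adjusted p = 0.290), without overlap. The meiotic subunits Stag3, Rec8 and Smc1b and the mitotic regulators Cdca5, Esco2 and Sgo1 were among those below the filter. Wapl, which releases cohesin from chromatin, differed by -0.01, and Ctcf, which stops cohesin at loop boundaries, by -0.23 (limma adjusted p = 0.413).

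The anaphase promoting complex and the spindle checkpoint, which decide when securin is destroyed, were measured through 20 of 27 genes. None passed, beside 1.22% of all tested genes, with 9 higher and 11 lower. The groups did not overlap for 1 that was higher and 5 that were lower. The shares of all tested probe sets were 11.5% and 10.7%. The median log2 difference was -0.02, with its sign turned, at 0.04, without labelled knockout replicate 3. Anapc10, a substrate-binding subunit, stood at 284 ± 6.35 and 238 ± 11.2 (log2 -0.24, limma adjusted p = 0.292). Mad2l2, which also acts in DNA repair, was at 101 ± 10.03 and 76.3 ± 11.7 (log2 -0.34, limma adjusted p = 0.298). Fzr1, the activator of the complex in cells that do not divide, differed by 0.10 (limma adjusted p = 0.793). Its mitotic counterpart Cdc20 was below the filter.

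Condensin and the Smc5/Smc6 complex, relatives of cohesin built on the same plan, were measured through 13 of 14 genes with a median of 0.06, which was 0.165 without wild type replicate 3. None passed, beside 1.22% of all tested genes, with 8 higher and 5 lower. The condensin II subunit Ncaph2 stood at 495 ± 177 and 305 ± 10.2 (log2 -0.62, limma adjusted p = 0.170), its wild type values being 418, 370 and 697. The condensin core subunit Smc2 read 128, 120 and 141 against 112, 73.9 and 84.5 (log2 -0.47, limma adjusted p = 0.197). Both had no overlap between the groups.

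Markers of dividing cells were mostly too dim to test. Of 20 genes, 4 were tested, 15 were below the filter and 1 was not matched. None of the 4 passed, beside 1.22% of all tested genes. They divided evenly, with Ccna2 at 0.32 (limma adjusted p = 0.414) and Mcm5 at -0.31 (limma adjusted p = 0.423) having the smallest p-values. Their median of -0.10 rests on 4 genes and moved with the choice of genes and arrays. It was -0.31 with no filter (19 genes), -0.35 without wild type replicate 1 and -0.28 without labelled knockout replicate 2, and a stricter filter left 1 gene, Pcna, at 0.12. Among the 15 dim genes, 14 had lower values there and the median log2 difference was -0.34, beside 46.5% lower and a median of 0.02 over all probe sets below the filter. The groups did not overlap for 4 of the 15, Ccnb2, Cdk1, Birc5 and Mcm3, where 5.29% of all probe sets below the filter were lower and 6.62% higher without overlap. Cdk1, the kinase that drives mitosis, read 31.4, 17.6 and 26.0 in wild type, against 11.7, 6.56 and 4.75 in the other group. Mki67, a marker of proliferating cells, read 17.9, 29.3 and 31.97 against 12.9, 18.4 and 4.36 and overlapped. The count of 14 lower held with pseudocounts of 1 and 64, quantile normalization and a shift to the common median, but the size of the median did not, at -0.745 with a pseudocount of 1 and -0.129 with 64. The count was 12 of 15 without wild type replicate 1 and labelled knockout replicate 2. These signals lie close to the low end of the arrays and were not tested, so no change is read from them. The 19 markers on the arrays, tested and dim together, summed to 1475 to 1501 in wild type and 1413 to 1489 in the labelled knockouts. Their part in the Pttg1 difference was not tested.

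**Figure D4:**
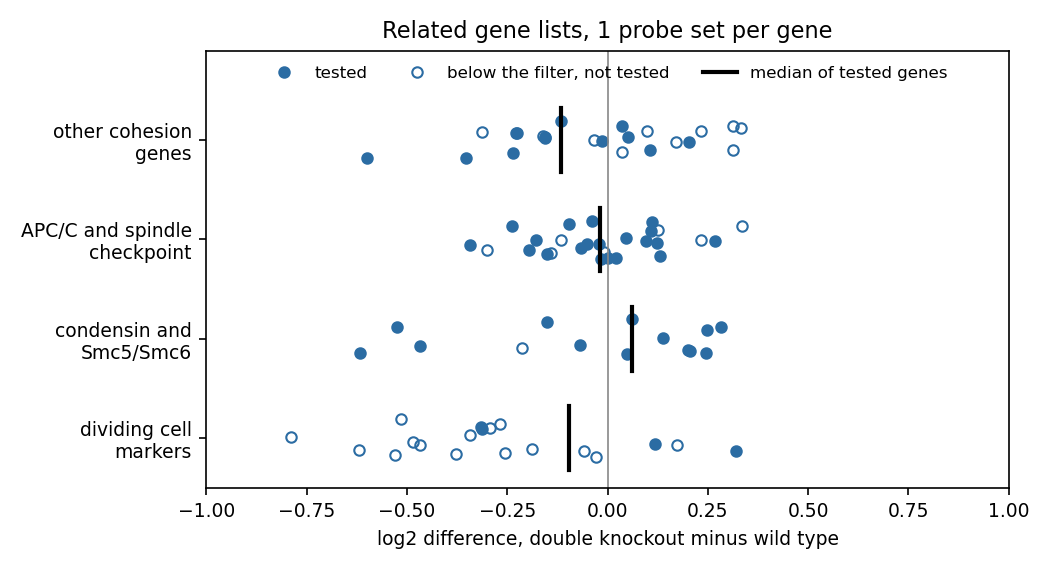
Log2 difference (labelled knockouts minus wild type) of each gene in 4 lists, with 1 probe set per gene. Filled points were tested, open points were below the filter, and black bars are medians of tested genes, from -0.12 to 0.06; none of the tested genes passed.

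The measured chromosomal neighbours of Pttg1 differed in both directions. Of the 20 measured genes nearest to it on chromosome 11, 10 on each side in the RefSeq gene table, 11 had log2 differences above 0 and 9 below, with a median of 0.02. In limma 0 of the 20 passed an adjusted p of 0.05 and 2 had an unadjusted p under 0.05. Of all tested genes 1.22% passed, so a count of 0 is near the background and is not a result about these genes. Slu7, a splicing factor gene next to Pttg1 with 0 genes between them, read 311.5, 302 and 300.02 in wild type, against 289.7, 248 and 310.5 in the labelled knockouts, with overlap (log2 -0.11, limma adjusted p = 0.691). The nearest measured gene on the other side was Gabrb2, a GABA-A receptor subunit gene, at -0.05 (limma adjusted p = 0.860). Lsm11, a component of the machinery that processes histone mRNA, had the highest difference of the 20, reading 234, 79.6 and 191 against 277.5, 529 and 371 (log2 1.21, limma adjusted p = 0.120). Lsm11 and Pttg1 thus differed in opposite directions between the groups.

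**Figure D5:**
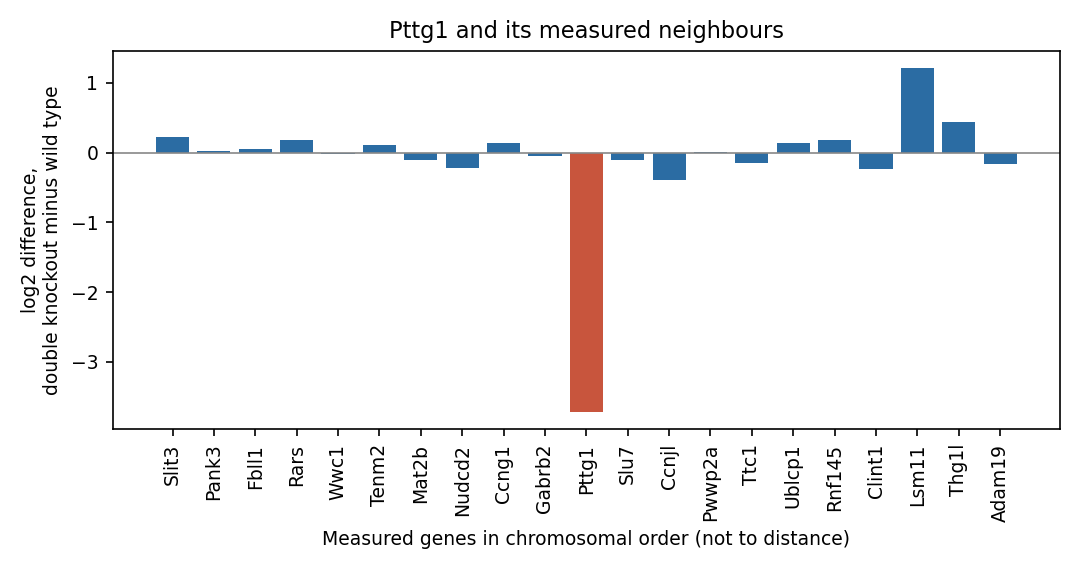
Bars give the log2 difference (labelled knockouts minus wild type) of Pttg1 on its brightest probe set and of the 10 nearest measured genes on each side, in chromosomal order and not to distance. Pttg1 is at -3.72, and its neighbours lie between -0.40 and 1.21.

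The tested probe sets most like Pttg1 across the 6 arrays were named by Pearson's r with 1438390_s_at on the log2 scale. They measured Mrps36 (r = 0.998), Rell2 (0.995), Sae1 (0.995), Aak1 (0.994) and Ankrd34a (0.993). Their wild type means were above the means of the other group by ratios of 1.1 to 1.3, against 15.6 for Pttg1. Mrps36, for example, read 354, 361 and 355 in wild type, against 317, 318 and 317 in the labelled knockouts. With 6 arrays in 2 groups, such a correlation shares its groups and arrays with the choice of Pttg1 and is given as a description. The second Pttg1 probe set had r = 0.997 and the dimmest r = 0.899.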

How the data were processed

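The authors deposited linear intensity signals, 1 per probe set and array; per the labels, 3 arrays were wild type and 3 double knockout. For software, settings and build, nothing was given in the sources used here. The means of the deposited signals after trimming 2% at each end were 150.0 on every array, so differences in total RNA cannot be seen. Array medians lay between 36.2 and 39.5, and precision is limited by having 6 arrays. Signals under 1 (4.35%) were set to 1 and log2(signal + 16) was taken. Probe sets with a mean above the median of all were tested (22518 of 45037, after 64 control probe sets were left out). Group was the only term in limma 3.58.1 (R 4.3.3, lmFit, eBayes with an intensity trend), with Benjamini-Hochberg adjustment over all 22518 and a threshold of 0.05. Platform symbols were updated through the RefSeq gene table of GRCm38.p6; 34945 probe sets had 1 symbol, 932 several and 9160 none. The 10 genes and the lists were chosen with earlier results of these data known. All 10 genes were named, and of each list the passing genes, or otherwise the 2 with the smallest p; other list genes were singled out after their values were seen. The step was tested on simulated data of 22518 probe sets: it recovered 9.8% of changes of 0.5, 64.8% of 1 and 96.2% of 2 on the log2 scale. Promoter windows were 250 bases. Alternatives were other pseudocounts, normalizations, filters, trends and array weights, each array left out, and the replicate number as a block. Replicate numbers did not pair the arrays. Figures were drawn with matplotlib 3.10.9.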

Additional observations from a re-analysis of the deposited data

How the results depend on the processing

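The count of 0 among the probe sets of the 9 genes besides Pttg1, and of 0 in the 4 lists, held in all 17 alternatives run, including no filter with 28 probe sets and the replicate block. In the main fit 1.02% of all tested probe sets and 1.22% of all tested genes passed. Counts of 0 are therefore near the background and are not a result about these genes. The count over all probe sets, 229, was 10 with no filter, 131 with no intensity trend and 9 without the doubted arrays, wild type replicate 1 and labelled knockout replicate 2 (chosen after seeing the data), and 33 (without labelled knockout replicate 3) to 300 (without wild type replicate 2) with 1 array left out; it was 99 without wild type replicate 1, 150 without labelled knockout replicate 1 and 51 without labelled knockout replicate 2. With the replicate block, the number as a pairing factor, it was 182, and deviations of same-numbered arrays correlated at -0.15, 0.00 and -0.10. Of the 23 tested probe sets of the other genes, 9 changed sign in fits with fewer arrays. With 1 array left out, log2 differences ran from -0.067 to 0.094 (Nipbl 1453576_at), -0.019 to 0.059 (Pds5b 1435242_at), -0.171 to 0.252 (Rad21 1455938_x_at), -0.019 to 0.052 (Smc1a 1417830_at), -0.046 to 0.262 (Smc1a 1417831_at), -0.189 to 0.043 (Smc1a 1417832_at), -0.069 to 0.10 (Stag1 1431921_a_at), -0.030 to 0.106 (Stag1 1441724_at) and -0.229 to 0.032 (Stag1 1450420_at). Without both doubted arrays, 4 of these turned, to -0.003 (Pds5b 1435242_at), -0.006 (Smc1a 1417830_at), 0.001 (Smc1a 1417832_at) and -0.042 (Stag1 1431921_a_at). The cause was not tested. Signals under 36.6, those of Espl1 and of most markers of division among them, limit what can be seen.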
